A study of Mus musculus with 12 samples.

Results

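The glypicans and syndecans are the 2 families of heparan sulfate proteoglycans that sit in the cell surface, and their 10 genes (*Gpc1* to *Gpc6* and *Sdc1* to *Sdc4*) were followed in neural stem cell (NSC) cultures of 3 groups. The members were taken by gene symbol and joined to the read counts by Ensembl identifier, which gave 10 genes of 45792 in the tables, all of which passed the filter on low counts. The symbol *Gpc2* is given to 2 identifiers, and the one that GENCODE also calls *Gpc2* was used (ENSMUSG00000029510). The other, ENSMUSG00000106247, is a readthrough transcript on the same strand that overlaps *Gpc2* and held between 0 and 24.9 estimated reads per library. On GRCm38 the 4 syndecan genes lie on 4 chromosomes, *Sdc1* at chr12:8771323-8793715, *Sdc2* at chr15:32920723-33034935, *Sdc3* at chr4:130792537-130826319 and *Sdc4* at chr2:164424247-164443887, while *Gpc1* is at chr1:92831645-92860779 and *Gpc2* at chr5:138273655-138280005, and the other 4 glypican genes form 2 pairs of neighbours.

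Heparan sulfate is a sulfated sugar chain that is built onto a core protein in the Golgi. At the cell surface it binds growth factors and matrix proteins and presents them to their receptors. Glypican core proteins are tied to the outer leaflet of the membrane by a lipid anchor, whereas syndecans cross the membrane and carry a short cytoplasmic tail that binds PDZ proteins and kinases. In neural precursors the chains are known as co-receptors of FGF and as binding sites of pleiotrophin, Slit and Wnt proteins, and Igfbp2 itself has a heparin-binding stretch.

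NSCs came from the forebrain of neonatal C57BL/6J pups, either WT or *Ncf1*-/-, which lack the cytosolic subunit Ncf1 of the NADPH oxidase Nox2. They were grown in serum-free medium with EGF, FGF, ITSS and B-27 in all 3 groups. The WT group and the untreated *Ncf1*-/- group received no Igfbp2, and the third group was *Ncf1*-/- given mouse recombinant Igfbp2, 48 h after plating, at 100 ng per ml by the labels (the study's methods name a lower concentration). RNA was taken 48 h later, with 4 libraries per group. Because these were bulk cultures, fewer cells of a type and less RNA per cell cannot be told apart.

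The library totals ran from 18201622 to 34086554 estimated reads, and values of a gene are given as CPM, its reads per 1000000 library reads after TMM scaling, unless TPM, which is also per transcript length, is named. *Ncf1* had between 1 and 7 reads per library, too few to check the genotype. The NSC markers *Nes* and *Sox2* were present in all libraries. WT replicate 3 stood apart from the other WT libraries, with 447 CPM of *Nes* against 118 to 158 and 327 CPM of the myelin gene *Mbp* against 1886 to 3885. The 4 Y-linked genes summed to 105 to 116 CPM in untreated *Ncf1*-/- and to 107 to 118 CPM in WT replicates 1 to 3, but to 6.46 CPM in WT replicate 4 and 7.79 to 9.18 CPM in the Igfbp2-treated libraries. *Xist*, the X-inactivation RNA, was at 3.87 to 5.22 CPM in WT replicates 1 to 3, 72.3 to 87.8 CPM in untreated *Ncf1*-/-, 291 CPM in WT replicate 4 and 166 to 275 CPM after Igfbp2. The study's methods state that each *Ncf1*-/- animal gave both an untreated and a treated culture, and the sex-linked genes go against that. Treatment and a difference between source animals therefore cannot be told apart, for any gene of the treatment comparison and not for the X-linked *Gpc3* and *Gpc4* alone. Against WT replicates 1 to 3, untreated *Ncf1*-/- cultures differed in *Xist*, and treated ones in *Xist* and the Y-linked genes. In the comparisons with WT, genotype and the sex of the source animals therefore cannot be fully told apart either. Each untreated *Ncf1*-/- library held both Y-linked RNA and *Xist*, and whether each came from a single pup was not tested. Their SDs and p-values may therefore not measure the spread between animals. A second sample sheet that came with the study's code lists the library labelled WT replicate 4 as apocynin-treated, so counts are also given without it.

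The 3 syndecans whose levels differed most between treated *Ncf1*-/- and WT cultures (*Sdc1*, *Sdc3* and *Sdc4*) also have a start-site sequence in RefSeq's table. The 250 bases before that start are shown as a description, and a link between any motif and the levels was not tested. The sequences are RefSeq's for GRCm38.p6, read 5′ to 3′ on the gene's strand, with GC boxes (GGGCGG on either strand) in capitals. *Sdc1* is at chr12:8771146-8771395 on the plus strand, *Sdc3* at chr4:130792287-130792536 on the plus strand and *Sdc4* at chr2:164443189-164443438 on the minus strand.
Sdc1: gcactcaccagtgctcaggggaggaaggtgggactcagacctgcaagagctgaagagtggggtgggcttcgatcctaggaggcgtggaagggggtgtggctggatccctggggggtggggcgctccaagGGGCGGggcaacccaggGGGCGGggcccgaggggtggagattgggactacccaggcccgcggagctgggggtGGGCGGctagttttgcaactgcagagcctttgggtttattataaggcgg
Sdc3: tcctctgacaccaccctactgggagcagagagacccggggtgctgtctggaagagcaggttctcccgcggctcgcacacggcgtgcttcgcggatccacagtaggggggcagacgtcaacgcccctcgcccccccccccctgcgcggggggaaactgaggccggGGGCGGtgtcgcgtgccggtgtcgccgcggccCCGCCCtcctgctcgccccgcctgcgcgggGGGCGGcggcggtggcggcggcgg
Sdc4: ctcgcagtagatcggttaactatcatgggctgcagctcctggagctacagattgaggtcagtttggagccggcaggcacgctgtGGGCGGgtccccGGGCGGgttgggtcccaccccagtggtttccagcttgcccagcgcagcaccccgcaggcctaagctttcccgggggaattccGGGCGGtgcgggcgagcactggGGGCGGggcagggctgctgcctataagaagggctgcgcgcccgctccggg
The stretch before *Sdc1* held 3 GC boxes, that before *Sdc3* 3 and that before *Sdc4* 4, and their GC content was 66.0%, 76.4% and 68.0%. Over the whole 300-base window, which runs 50 bases past the start, GC boxes were found in 7 of the 7 members with an entry (*Gpc2*, *Gpc3*, *Gpc4*, *Gpc5*, *Sdc1*, *Sdc3* and *Sdc4*), from 1 in *Gpc4* and *Gpc5* to 4 in *Gpc3* and *Sdc4*. Among the 32851 promoters listed by RefSeq, 35.7% held at least 1 GC box and 19.5% held 2 or more. Their median GC content was 52.7%, against 54.7% to 77.7% in the 7 member windows, so these shares are not matched for GC content. An Egr1 site (GCGTGGGCG), an E-box (CACGTG), an AP-1 site (TGANTCA) and a CRE (TGACGTCA), searched on both strands, had no match in the 7 windows, and are found in 0.612%, 7.15%, 7.81% and 1.79% of all promoters. GC boxes stood before *Gpc3*, which was low in *Ncf1*-/-, as well as before the syndecans.

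On the TPM scale, which allows genes to be set side by side, *Sdc3* was the most abundant member in each group by its mean. *Sdc3*, the syndecan of neurons and glia and a receptor of pleiotrophin, was at 62.9 ± 31.4 TPM in WT (SD, n = 4), 133 ± 4.61 TPM in *Ncf1*-/- and 111 ± 18.5 TPM after Igfbp2. In WT its libraries (36.4 to 108 TPM) overlapped those of *Sdc4*, next in order, at 16.4 to 43.1 TPM, while in both *Ncf1*-/- groups the 2 ranges were apart. *Sdc4*, the syndecan of focal adhesions, and *Gpc1* followed, and these 2 overlapped in WT and untreated *Ncf1*-/- but not after Igfbp2, where *Sdc4* was at 45.4 to 58.0 TPM and *Gpc1* at 17.6 to 26.0 TPM. *Sdc1*, *Sdc2*, *Gpc2*, *Gpc6* and *Gpc4* lay between 2.45 and 16.8 TPM, and most neighbours in this stretch overlapped. *Gpc3* and *Gpc5* were lowest in each group. *Gpc3* was at 1.58 to 4.13 TPM in WT and 0.180 to 0.440 TPM in the *Ncf1*-/- groups. *Gpc5* was at 0.760 to 1.31 TPM in WT and 0.0700 to 0.350 TPM in the *Ncf1*-/- groups, with as few as 6 reads in a library.

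The make-up of each family differed between the groups. Of the summed syndecan TPM, *Sdc3* held 57.5% ± 8.96 in WT (SD, n = 4), 71.2% ± 1.30 in *Ncf1*-/- and 58.9% ± 2.60 after Igfbp2. The share of *Sdc4* was 26.8% ± 6.99, 15.7% ± 0.428 and 28.2% ± 1.98 in the same order, so the *Sdc4* share of the 4 untreated *Ncf1*-/- libraries (15.1% to 16.1%) lay below those of both other groups (19.8% to 36.4% in WT and 25.6% to 30.3% after Igfbp2). Among the glypicans *Gpc1*, the main glypican of the nervous system, held 51.0% ± 4.64, 58.0% ± 1.27 and 59.6% ± 1.96. The share of *Gpc6* was 16.6% ± 5.45 in WT, 10.3% ± 1.31 in *Ncf1*-/- and 17.1% ± 1.49 after Igfbp2, and that of *Gpc2* was 17.0% ± 2.70, 21.2% ± 2.69 and 11.6% ± 0.503. The untreated and treated *Ncf1*-/- libraries did not overlap in either share. Summed over the family, the syndecans were at 66.8 to 160 TPM in WT, 180 to 196 TPM in *Ncf1*-/- and 162 to 218 TPM after Igfbp2, and the glypicans at 41.4 to 60.8, 42.8 to 50.4 and 29.9 to 42.6 TPM. In CPM the syndecans summed to 329 to 652, 884 to 952 and 1053 to 1206 in the same order. The glypicans summed to 224 to 252, 213 to 221 and 240 to 263 CPM. Treated cultures thus lay below untreated *Ncf1*-/- in summed glypican TPM but above them in CPM, so this direction depended on the scale.

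**Figure D1:**
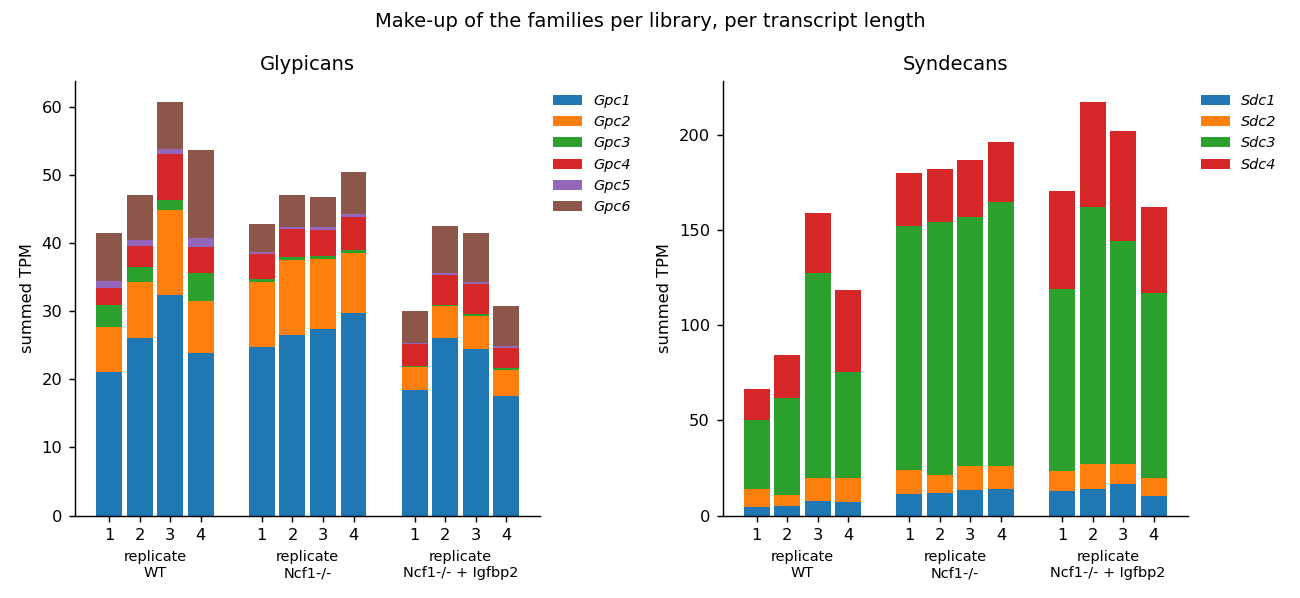
Summed TPM of the 6 glypicans (left) and the 4 syndecans (right) in each of the 12 libraries, with bars stacked by gene and numbered by replicate within WT, *Ncf1*-/- and *Ncf1*-/- + Igfbp2. *Sdc3* makes up most of the syndecan bars of *Ncf1*-/- (71.2%), and WT replicate 3 has the highest WT bar in both families (60.8 and 160 TPM).

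The first comparison asks how loss of Ncf1 relates to these genes. *Sdc1* and *Sdc3* were higher in untreated *Ncf1*-/- than in WT NSCs, by 2.02-fold and 2.26-fold, and *Gpc3*, *Gpc5* and *Gpc6* were lower, by 6.95-fold, 2.97-fold and 1.72-fold. The other 5 members were not called. With edgeR's quasi-likelihood test at an adjusted p under 0.05, 5 of the 10 members were thus called, beside 57.2% of all 15706 genes tested. Of these, 2 were higher (28.9% of all genes) and 3 lower (28.2% of all genes), which was 2 of 4 syndecans higher and 3 of 6 glypicans lower. Groups did not overlap for 4 of the 10 members, against 51.2% of all genes. The share of members called was thus near that of all genes.

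*Sdc1*, a syndecan best known from epithelia and plasma cells, was at 18.0, 16.9, 23.3 and 23.8 CPM in WT replicates 1 to 4 and at 38.5, 40.2, 45.1 and 41.8 CPM in *Ncf1*-/- replicates 1 to 4. The lowest *Ncf1*-/- library was above the highest WT library, with a log2 fold change of 1.01 ± 0.116 (SE here and below, edgeR adjusted p = 9.35e-06). *Sdc3* was at 231, 273, 525 and 297 CPM in WT and at 740, 746, 781 and 733 CPM in *Ncf1*-/-. Here too the groups were apart, although WT replicate 3 lay well above the other WT libraries, and the log2 fold change was 1.18 ± 0.201 (edgeR adjusted p = 0.000244). Without that library it was 1.49, the highest value over all alternatives.

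Of the glypicans, *Gpc3*, a regulator of hedgehog and Wnt signalling and of body growth, was at 10.7, 6.48, 3.90 and 11 CPM in WT and at 1.31, 1.21, 1.06 and 1.01 CPM in *Ncf1*-/-. Every *Ncf1*-/- library was below every WT library, and WT replicate 3 was the lowest of its group. The log2 fold change was -2.80 ± 0.316 (edgeR adjusted p = 8.27e-06), with 24 to 30 reads in each *Ncf1*-/- library. *Gpc5*, a glypican of the brain and kidney, was at 3.27, 2.70, 1.75 and 3.67 CPM in WT and at 0.915, 0.871, 1.06 and 0.933 CPM in *Ncf1*-/-. These groups did not overlap either (log2 fold change -1.57 ± 0.324, edgeR adjusted p = 0.00103). *Gpc6*, which like *Gpc4* is known as a signal that astrocytes release to form synapses, was at 49.9, 41.8, 36.1 and 76.9 CPM in WT and at 25.7, 28.9, 26.1 and 38.1 CPM in *Ncf1*-/-. Its groups overlapped, since *Ncf1*-/- replicate 4 exceeded WT replicate 3, and the log2 fold change was -0.78 ± 0.207 (edgeR adjusted p = 0.00577). The test of the study's methods, made on TPM, did not call *Gpc6* (adjusted p = 0.246).

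The 2 pairs of neighbouring glypican genes differed in what was called. *Gpc4* (chrX:52053021-52165252) and *Gpc3* (chrX:52272426-52613950, GRCm38) lie 107.2 kb apart on the minus strand, and the log2 fold change of *Gpc4* was 0.04 (95% interval -0.36 to 0.43) against -2.80 (-3.48 to -2.11) for *Gpc3*. *Gpc5* (chr14:115092215-116525179) and *Gpc6* (chr14:116925315-117976544) lie 400.1 kb apart on the plus strand and were both lower.

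Among members that were not called, *Gpc1* (0.04, 95% interval -0.14 to 0.22), *Gpc2* (0.15, -0.14 to 0.44) and *Sdc4* (0.06, -0.35 to 0.47) had log2 fold changes near 0. *Sdc2*, known for its part in filopodia and dendritic spines, was at 29.2, 26.2, 31.6 and 39.6 CPM in WT and at 37.3, 36.5, 40.1 and 39.0 CPM in *Ncf1*-/-, a log2 fold change of 0.27 ± 0.112 (edgeR adjusted p = 0.0529). WT replicate 4 alone reached the *Ncf1*-/- range, and without it the value was 0.37 (edgeR adjusted p = 0.00251). Without Igfbp2-treated replicate 4 it was 0.30 (edgeR adjusted p = 0.0391). *Sdc2* was also called on library totals and with a floor of 5 CPM on the mean, so that 4 alternatives called it. *Gpc4* was at 9.60, 10.7, 20.3 and 12.6 CPM in WT and at 13.6, 13.9, 13.2 and 14.4 CPM in *Ncf1*-/-. Without WT replicate 3 the *Gpc4* value was 0.33 (edgeR adjusted p = 0.0125) and that of *Gpc2* 0.29 (edgeR adjusted p = 0.0416), which brought the members called to 7, while without WT replicate 4 there were 6.

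**Figure D2:**
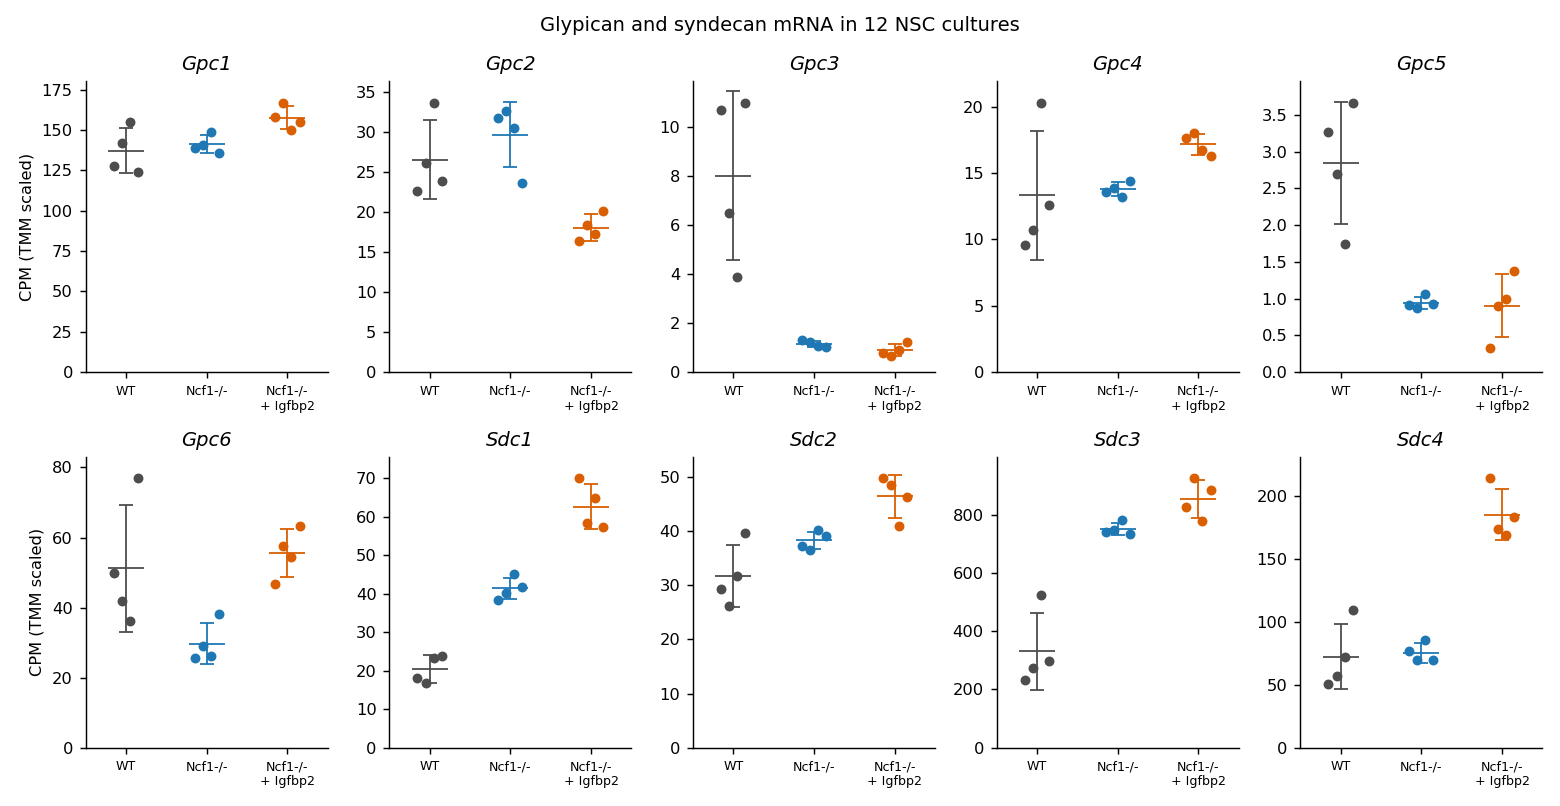
CPM (TMM scaled, linear axis from 0) of each member in the 12 libraries. Points are libraries, ordered by replicate within a group, and bars give the mean and SD of 4. *Sdc1* climbs over the 3 groups without overlap, *Gpc3* and *Gpc5* are high in WT only, and *Sdc4* stands out in the Igfbp2-treated cultures (169 to 214 CPM).

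Markers of several cell types differed between the genotypes. Their counts are to be read against 28.9% of all genes higher and 28.2% lower. Calls on neuronal and microglial genes were near the 57.2% of all genes called, and those on endothelial genes below it. The sums of endothelial and NSC genes overlapped between the genotypes. The 12 genes of the oligodendrocyte lineage summed to 4309 to 13578 CPM in WT and 2227 to 2403 CPM in *Ncf1*-/-, with 10 lower and 2 higher. Astrocyte genes (8 listed, 7 tested, 6 lower) summed to 6220 to 11793 CPM in WT and 2458 to 3000 CPM in *Ncf1*-/-, neuronal genes (10 listed, 6 lower) to 667 to 1066 and 504 to 571 CPM, and mesenchymal genes (10 listed, 8 tested, 6 higher and 1 lower) to 41.9 to 74.2 and 110 to 115 CPM. *Mbp* had a mean of 2448 CPM in WT and 2.78 CPM in *Ncf1*-/-, whereas the defining genes of microglia (*Aif1*, *Cx3cr1*), endothelium (*Cldn5*, *Pecam1*) and fibroblasts (*Dcn*) were at or near 0 throughout, at most 0.741 CPM. *Col1a1* ranged from 0.324 to 5.29 CPM. Of 10 listed microglial genes 3 were tested and 2 were higher (sums of 19.1 to 33.9 CPM in WT and 37.6 to 40.3 CPM in *Ncf1*-/-), of 8 endothelial genes 4 were tested and 1 was lower (9.41 to 15.5 and 8.58 to 11.5 CPM), and of 10 NSC genes 3 were higher and 6 lower (3479 to 9487 and 8882 to 9643 CPM). The part of these cell types in the changes of the members was not tested.

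The second comparison sets treated against untreated *Ncf1*-/- cultures, where treatment and source animals cannot be told apart. *Sdc4*, *Gpc6* and *Sdc1* were higher in treated cultures, by 2.46-fold, 1.87-fold and 1.51-fold, and *Gpc2* was lower by 1.64-fold. Thus 4 of the 10 members were called, beside 25.0% of all genes, with 3 higher (14.2% of all genes) and 1 lower (10.7%). The treated and untreated libraries did not overlap for 7 members, against 34.1% of all genes. Across all genes 2238 were higher and 1685 lower, but the split was 648 to 5258 when libraries were scaled to their totals, and 200 to 6154 with limma on log2(TPM + 1). These scales moved the median log2 fold change of all genes from 0.04 to -0.23 and -0.30, so that each member is best read against that shift.

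*Sdc4*, which binds matrix fibronectin and activates protein kinase C alpha, was at 76.5, 69.3, 85.8 and 69.7 CPM in untreated cultures and at 214, 174, 169 and 183 CPM in treated ones. All 4 treated libraries were above all untreated ones, and the log2 fold change was 1.30 ± 0.194 (edgeR adjusted p = 0.00117). It stayed between 0.82 and 1.32 over all alternatives, on both scales, and missed the threshold in the study's test on TPM (adjusted p = 0.0534). *Gpc2*, or cerebroglycan, a glypican of developing neurons, was at 31.8, 32.7, 30.5 and 23.7 CPM in untreated and 16.4, 18.4, 17.3 and 20.2 CPM in treated cultures. The groups did not overlap, and the log2 fold change of -0.71 ± 0.137 (edgeR adjusted p = 0.00378) was called in all 21 alternatives, with values between -1.23 and -0.66.

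*Gpc6* was at 46.8, 57.6, 54.4 and 63.4 CPM after Igfbp2, above all 4 untreated libraries (log2 fold change 0.90 ± 0.208, edgeR adjusted p = 0.00897). On log2(TPM + 1) the value of *Gpc6* was 0.29 and not called (limma adjusted p = 0.248). *Sdc1* was at 70.0, 58.5, 64.8 and 57.3 CPM after Igfbp2, again without overlap (log2 fold change 0.60 ± 0.114, edgeR adjusted p = 0.00356). On the TPM scale *Sdc1* was at 11.2 to 14.2 before and 10.3 to 16.8 after treatment, and its call was lost there (log2(TPM + 1) difference 0.08, limma adjusted p = 0.735) and with library totals (0.33, edgeR adjusted p = 0.0556). The direction held for *Sdc4*, *Gpc6*, *Sdc1* and *Gpc2* under all alternatives, whereas the calls on *Gpc6* and *Sdc1* depended on the scale.

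*Gpc4*, *Gpc1* and *Sdc2* did not overlap between the treatments but were not called. *Gpc4* was at 17.6, 18.0, 16.7 and 16.3 CPM after Igfbp2 (log2 fold change 0.32, edgeR adjusted p = 0.217), *Gpc1* at 158, 167, 150 and 155 CPM (0.16, edgeR adjusted p = 0.172) and *Sdc2* at 49.7, 48.5, 40.9 and 46.3 CPM (0.28, edgeR adjusted p = 0.0846). With the replicate number as a block *Gpc4* was called at 0.27 (edgeR adjusted p = 0.0279) and *Sdc2* at 0.23 (edgeR adjusted p = 0.0493), and both were also called when only these 2 groups were fitted. Without WT replicate 3 *Gpc4* was called (0.32, edgeR adjusted p = 0.0199), as was *Sdc2* without WT replicate 4 (0.24, edgeR adjusted p = 0.0356). The direction of *Gpc1*, *Gpc4*, *Sdc2* and *Sdc3* turned on the TPM scale, and that of *Gpc1* and *Sdc3* also on library totals. *Sdc3*, at 828, 925, 778 and 886 CPM, overlapped with untreated cultures (0.19, 95% interval -0.24 to 0.62). *Gpc3* stayed low at 0.775, 0.661, 0.909 and 1.23 CPM (log2 fold change -0.34, 95% interval -1.12 to 0.44), as did *Gpc5* at 0.332, 0.902, 1.0 and 1.37 CPM (-0.05, -0.82 to 0.71).

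**Figure D3:**
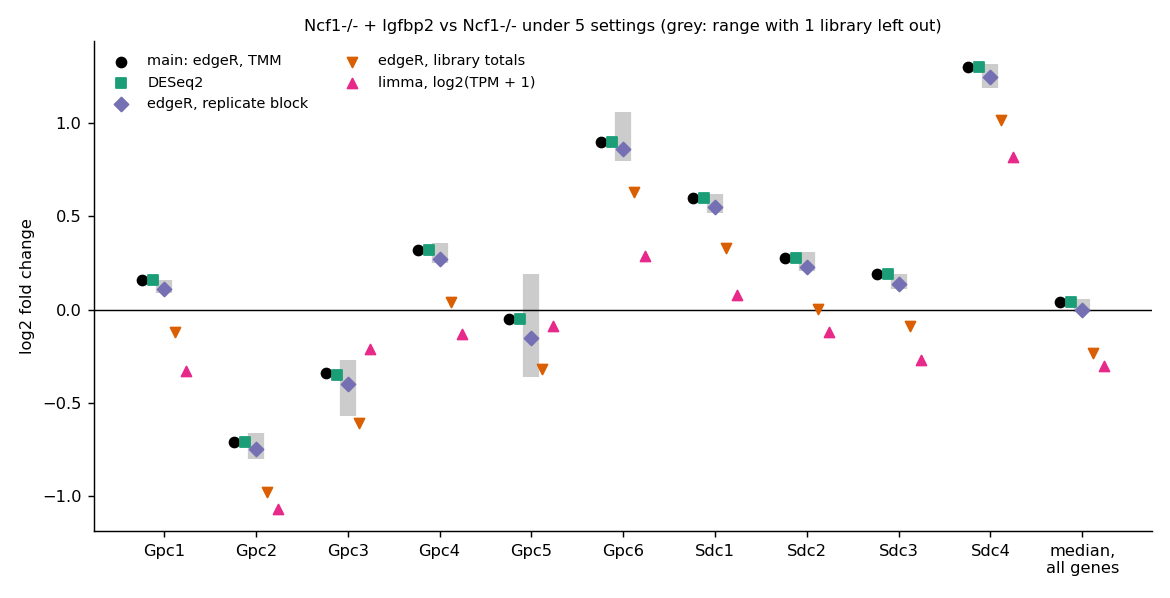
Log2 fold change of each member, and the median of all genes, for *Ncf1*-/- + Igfbp2 against *Ncf1*-/- under 5 settings, with the range over libraries left out in grey. *Sdc4* and *Gpc2* keep their sign under the 5 settings, whereas *Gpc1*, *Gpc4*, *Sdc2* and *Sdc3* fall below 0 with limma on log2(TPM + 1), along with the median of all genes.

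The oligodendrocyte genes summed to 2309 to 2381 CPM after Igfbp2 (1 of 12 higher) and the astrocyte genes to 2712 to 3741 CPM (1 of 7 higher), while the mesenchymal genes summed to 130 to 153 CPM, above the 110 to 115 CPM of untreated cultures (4 of 8 higher). Neuronal genes summed to 460 to 491 CPM, below the 504 to 571 CPM of untreated cultures (2 of 10 lower). Endothelial genes summed to 14.8 to 19.3 CPM against 8.58 to 11.5 CPM (1 of 4 higher), microglial genes to 36.3 to 45.7 CPM against 37.6 to 40.3 CPM (0 of 3 called), and NSC genes to 9198 to 9779 CPM against 8882 to 9643 CPM (1 of 10 higher and 1 lower). The 4 Y-linked genes were all lower. Among all genes 14.2% were higher and 10.7% lower in this comparison. The part of these in the fall of *Gpc2* and the rise of *Sdc4*, *Gpc6* and *Sdc1* was not tested.

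The third comparison sets Igfbp2-treated *Ncf1*-/- cultures against WT and shares its samples with the other 2. All 4 syndecans were higher than in WT, *Sdc1* by 3.05-fold, *Sdc3* by 2.57-fold, *Sdc4* by 2.56-fold and *Sdc2* by 1.46-fold. None of the 4 overlapped with WT in CPM. On the TPM scale *Sdc2* (9.26 to 12.9 against 6.09 to 12.8 in WT) and *Sdc3* (95.7 to 135 against 36.4 to 108) overlapped, while *Sdc1* and *Sdc4* did not. Of the glypicans *Gpc3*, *Gpc5* and *Gpc2* were lower, by 8.80-fold, 3.08-fold and 1.47-fold, and *Gpc1* was 1.15-fold higher. In all 8 of 10 members were called, beside 62.4% of all genes, 5 of them higher (31.6% of all genes) and 3 lower (30.8%), and 7 did not overlap, against 54.3% of all genes. The median log2 fold change of the 4 syndecans was 1.36 and that of the 6 glypicans -0.22, beside -0.01 over all genes.

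The log2 fold changes were 1.61 ± 0.117 for *Sdc1* (edgeR adjusted p = 2.56e-07), 1.36 ± 0.202 for *Sdc3* (edgeR adjusted p = 7.28e-05), 1.36 ± 0.194 for *Sdc4* (edgeR adjusted p = 5.68e-05) and 0.55 ± 0.112 for *Sdc2* (edgeR adjusted p = 0.000888). Only *Sdc2* and *Sdc3* lost a call among the syndecans, *Sdc2* in the 3 tests on TPM (0.11 to 0.15) and *Sdc3* in the study's test (0.82, adjusted p = 0.0986). *Gpc3* (-3.14 ± 0.331, edgeR adjusted p = 4.56e-06), *Gpc5* (-1.62 ± 0.332, edgeR adjusted p = 0.000886) and *Gpc2* (-0.56 ± 0.137, edgeR adjusted p = 0.00319) were called in every alternative that tested them. The call on *Gpc1* (0.20 ± 0.0816, edgeR adjusted p = 0.0491) was lost in 15 of 20 alternatives and turned direction in 3 others. It was lost on leaving out any 1 of the 12 libraries except WT replicate 3, with the weakest value, 0.08 (edgeR adjusted p = 0.381), without WT replicate 4. *Gpc6* was at a level that overlapped with WT (0.12, 95% interval -0.32 to 0.56). *Gpc4* was not called (0.36, edgeR adjusted p = 0.106), and without WT replicate 3 it was (0.65, edgeR adjusted p = 9.87e-05), which made 9 members called.

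**Figure D4:**
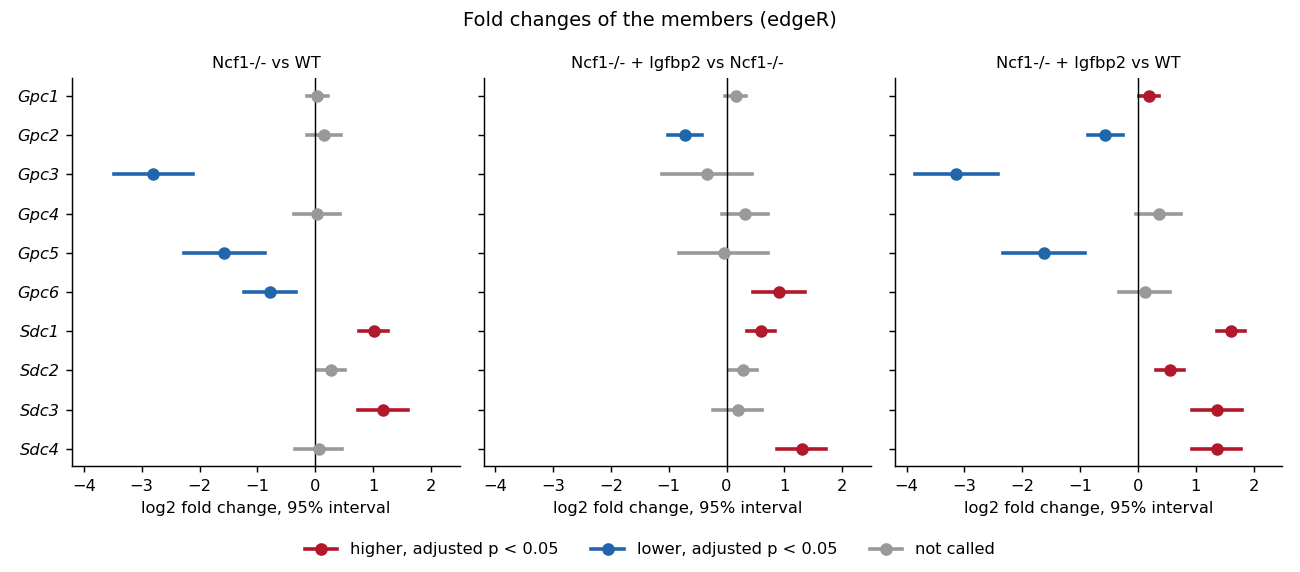
Log2 fold change (edgeR) with its 95% interval for each member in the 3 comparisons, red where called higher, blue where called lower and grey where not called. The syndecans lie at or above 0 in the 3 panels, up to 1.61 for *Sdc1*, and *Gpc3* lies farthest below 0, at -2.80 and -3.14 against WT.

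RSEM's mean transcript length, which shifts with the mix of isoforms, was set side by side for the 9 members with more than 1 transcript. *Gpc3* was at 2173 to 2199 bases in WT and 2216 bases in all 4 treated libraries, and *Gpc6* at 4417 to 4660 and 4828 to 5149 bases, so that 2 of 9 did not overlap between treated *Ncf1*-/- and WT, against 12.1% of 10479 genes. In the comparisons of *Ncf1*-/- with WT and of treated with untreated cultures 0 of 9 were apart, against 9.88% and 10.3% of these genes. The *Gpc3* length in treated libraries rests on only 11 to 25 reads each, and untreated *Ncf1*-/- libraries ran from 2176 to 2216 bases.

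The other genes of the heparan sulfate pathway, 86 in 6 lists of which 74 were tested, were counted in the same fits. Against WT, 16 were higher and 28 lower in *Ncf1*-/-, or 44 of 74 called beside 57.2% of all genes, with a median log2 fold change of -0.17 beside 0.02 over all genes. The lists' counts in this comparison are to be read against 28.9% of all genes higher and 28.2% lower. Igfbp2 treatment was accompanied by 30 higher and 4 lower, or 34 of 74 beside 25.0% of all genes (14.2% higher and 10.7% lower), with a median of 0.34 beside 0.04 over all genes. On library totals this last count was 13 higher and 5 lower, and on log2(TPM + 1) 4 higher and 7 lower, so the preponderance of higher calls depended on the scale. It was 21 called in all without *Ncf1*-/- replicate 1, *Ncf1*-/- replicate 2 or treated replicate 3, and 22 without treated replicate 2. Between treated *Ncf1*-/- and WT cultures 32 were higher and 24 lower, or 56 of 74 beside 62.4% of all genes.

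Enzymes that start and extend the chain showed 4 of 12 higher and 0 lower in *Ncf1*-/-, and 7 of 12 higher and 0 lower after Igfbp2. *Xylt1*, which adds the first sugar to the core protein, had a mean of 64.0 ± 7.05 CPM in WT (SD, n = 4), 110 ± 14.5 CPM in *Ncf1*-/- and 176 ± 22.1 CPM after Igfbp2, with log2 fold changes of 0.78 (edgeR adjusted p = 9.13e-05) and 0.67 (edgeR adjusted p = 0.00254). The study's test on TPM called *Xylt1* in neither comparison, and limma on TPM did not call it after Igfbp2. *Ext1*, a subunit of the chain polymerase, was at 57.2 ± 15.4 CPM in WT and 100 ± 9.16 CPM in *Ncf1*-/- (0.81, edgeR adjusted p = 0.000487), a call lost in the study's test. *Pxylp1*, the phosphatase that lets the linker be extended, rose by 0.53 (edgeR adjusted p = 0.000195). After Igfbp2, *Extl3* (0.47) and *Xylt2* (0.42) were higher, but neither was called on library totals or on TPM, where the direction of *Xylt2* turned in 3 alternatives and that of *Extl3* in 1.

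Of 14 tested genes that modify the chain, 5 were higher and 7 lower in *Ncf1*-/-. The epimerase *Glce* (log2 fold change 0.79), the 2-O-sulfotransferase *Hs2st1* (0.76) and the 3-O-sulfotransferase *Hs3st3b1* (0.47) rose, with edgeR adjusted p of 4.73e-05, 7.98e-06 and 0.0131. The calls on *Glce* and *Hs3st3b1* were lost in the 3 tests on TPM, and that on *Hs3st3b1* also without *Ncf1*-/- replicate 4. The N-deacetylase and N-sulfotransferase *Ndst1* (-0.82), the sulfate-donor synthase *Papss1* (-0.77) and the 6-O-sulfotransferase *Hs6st1* (-0.45) fell, with edgeR adjusted p of 2.18e-05, 4.08e-05 and 0.00158. The call on *Hs6st1* was lost in the 3 tests on TPM and that on *Ndst1* in the study's test. After Igfbp2, 2 were higher and 1 lower. These were *Hs6st1* (0.47) and *Ndst1* (0.46), both lower in *Ncf1*-/- than in WT, and *Slc35b3* (-0.84), a Golgi transporter of the sulfate donor. Of these 3, *Slc35b3* was called under all 21 alternatives, while *Hs6st1* and *Ndst1* were not called on library totals or on TPM, and their direction turned in 2 and 3 alternatives.

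Among 8 tested genes that edit, shed or release the chains or cores, 2 were higher and 2 lower in *Ncf1*-/-. *Sulf1*, which removes 6-O-sulfates at the cell surface, was at 2.68, 4.48, 100 and 10.5 CPM in WT replicates 1 to 4 and at 142 to 158 CPM in *Ncf1*-/-. Here WT replicate 3 again stood near the *Ncf1*-/- libraries (log2 fold change 2.28, edgeR adjusted p = 0.0282), and without it the value was 4.66. The call was lost with DESeq2, with only these 2 groups fitted, and without *Ncf1*-/- replicate 4, WT replicate 2 or WT replicate 4. The sheddase *Adam10* was higher (0.55), and the secretase *Bace1* (-1.69) and the phospholipase *Gpld1* (-0.30), which can cut lipid anchors such as that of the glypicans, were lower. The call on *Adam10* was lost in the 3 tests on TPM. The call on *Gpld1* was lost on library totals, on TPM, without a filter and without *Ncf1*-/- replicate 2 or WT replicate 2. The second sulfatase, *Sulf2*, was at 314, 343, 359 and 417 CPM in untreated and 566, 607, 615 and 661 CPM in treated cultures (0.77, edgeR adjusted p = 0.00353), and the membrane protease *Mmp14* was 0.43 higher. *Sulf2* lost its call on TPM. The call on *Mmp14* was lost in 12 of 21 alternatives, among them the omission of any of these 8 libraries except *Ncf1*-/- replicate 4, and its direction turned in 3. In all 3 of 8 were higher after Igfbp2 and 0 lower.

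Heparan sulfate proteoglycans outside the 2 families had a median log2 fold change of -0.43 in *Ncf1*-/- and 0.90 after Igfbp2. *Col18a1*, the matrix collagen with heparan sulfate chains, was at 2.91, 1.84, 7.54 and 5.46 CPM in WT, 42.3 to 54.3 CPM in *Ncf1*-/- and 104 to 113 CPM after Igfbp2, and the 3 groups did not overlap (log2 fold changes 3.42 and 1.14, edgeR adjusted p = 1.08e-06 and 0.00872). *Agrn*, the basement membrane proteoglycan agrin, was at 420 to 545 CPM in WT and 170 to 186 CPM in *Ncf1*-/- (-1.42, edgeR adjusted p = 1.80e-07). *Spock2*, or testican, was lower in *Ncf1*-/- (-1.64) and higher after Igfbp2 (1.17). *Hspg2*, or perlecan, rose from 26.1 ± 6.70 to 84.7 ± 16.7 CPM after Igfbp2 (1.69, edgeR adjusted p = 0.00298). Of these calls the study's test lost those on *Spock2* in both comparisons and on *Hspg2*, and limma on TPM lost *Spock2* after Igfbp2 with a pseudocount of 1 and *Col18a1* after Igfbp2 with 0.1. In all 1 of 8 was higher and 2 lower in *Ncf1*-/-, and 6 of 8 were higher after Igfbp2 with 0 lower.

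The 9 tested partners of the syndecan tail showed 0 higher and 5 lower in *Ncf1*-/-, a share called near the 57.2% of all genes. *Prkca*, the kinase that *Sdc4* activates, fell by 1.90 on the log2 scale, from 105 ± 11.4 to 28.0 ± 3.78 CPM (edgeR adjusted p = 9.29e-08). The PDZ protein *Gipc1* (-1.62) and the actin linker *Ezr* (-0.99) also fell, the latter not called in the study's test. After Igfbp2, 4 were higher, among them *Prkca* (0.48), *Tiam1* (0.41) and *Src* (0.37), and 0 were lower. These 3 calls were lost on library totals and on TPM, where the direction turned in at least 2 alternatives each. The call on *Prkca* was also lost without *Ncf1*-/- replicate 3 or treated replicate 4, that on *Tiam1* without treated replicate 3, and that on *Src* on leaving out any of these 8 libraries except *Ncf1*-/- replicate 4 and treated replicate 1.

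Ligands and receptors that bind the chains had 4 higher and 12 lower of 23 tested in *Ncf1*-/-. *Igfbp2* itself was at 28.9, 27.4, 228 and 108 CPM in WT and at 636 to 768 CPM in *Ncf1*-/- (2.80, edgeR adjusted p = 0.000637). The *Sdc3* ligand *Ptn*, or pleiotrophin, rose by 0.85 (edgeR adjusted p = 0.00884), from 807 ± 382 to 1459 ± 99.3 CPM, and its relative *Mdk* by 0.79. *Fgfr2* (-1.54), *Robo2* (-1.51) and *Fgfr3* (-1.43) had the largest falls of the genes that averaged 5 CPM or more. After Igfbp2, 8 were higher, among them tenascin *Tnc* (1.47), the phosphatase *Ptprf* (0.75) and *Fgfr3* (0.63), and 3 were lower, among them *Ptprd* (-0.63) and *Robo2* (-0.36). The calls on *Fgfr3* and *Ptprd* after Igfbp2 were lost on leaving out any of these 8 libraries except *Ncf1*-/- replicate 3, and that on *Robo2* without *Ncf1*-/- replicate 2 or 4. After Igfbp2 *Ptprf*, *Fgfr3* and *Robo2* were not called in the 3 tests on TPM, and the study's test called neither *Tnc* nor *Ptprd*. In *Ncf1*-/- against WT the study's test lost *Ptn* and *Fgfr3*.

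**Figure D5:**
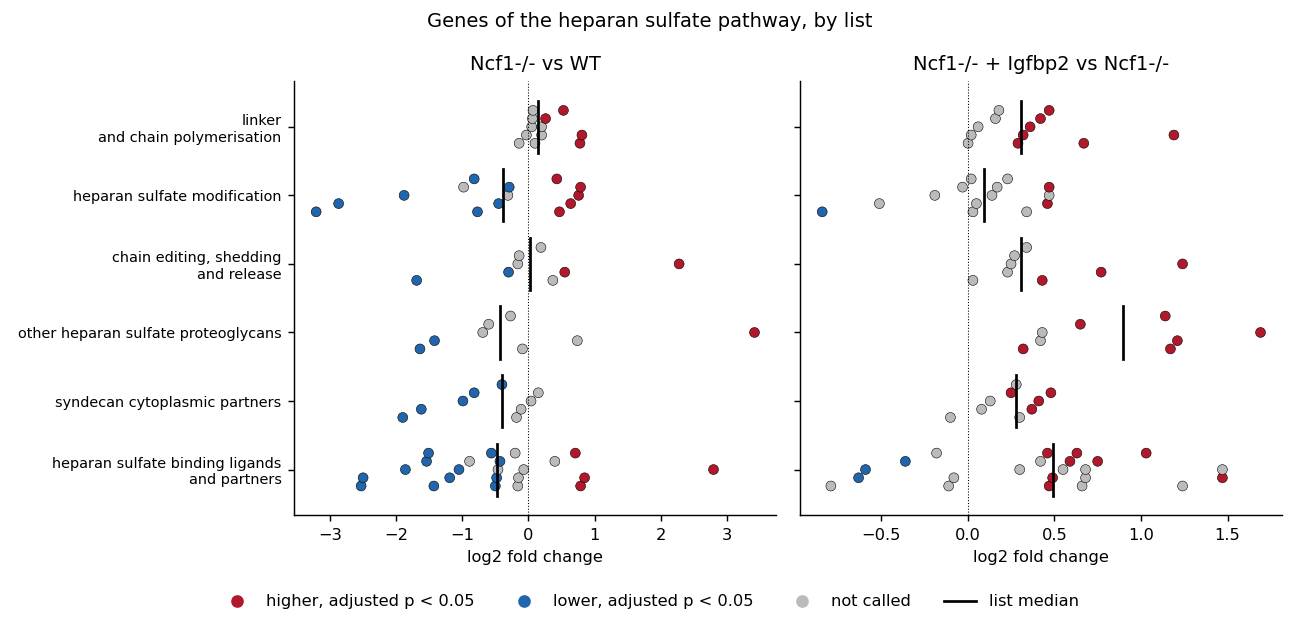
Log2 fold change of each tested gene of the 6 pathway lists in *Ncf1*-/- against WT (left) and *Ncf1*-/- + Igfbp2 against *Ncf1*-/- (right), with different horizontal scales. Points are genes, red or blue where called, and black bars are list medians, which run from -0.48 to 0.15 on the left and from 0.10 to 0.90 on the right.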

How the data were processed

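RNA-seq was done on rRNA-depleted RNA of 12 NSC cultures, 4 per group. Groups came from the sample labels. The authors mapped reads with Bowtie2 to GRCm38 and quantified genes with RSEM, whose versions and annotation are not given in the sources used here. The deposited tables hold, per library and gene, expected counts (reads that the authors' RSEM run estimated for the gene), TPM as computed by the authors, and a mean transcript length in bases. A deposited merged table holds a score equal to TPM times the gene's number of transcripts in 100% of 257083 values, and was used only for gene symbols. No column of the authors' own comparisons was used.

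Expected counts were rounded and tested with edgeR 4.0.16 in R 4.3.3 (filterByExpr, 15706 genes kept with 99.9% of counts, TMM, quasi-likelihood, one coefficient per group, 12 libraries in 1 fit), with Benjamini-Hochberg adjustment over all genes kept and a threshold of 0.05. Alternatives were DESeq2 1.42.0, limma 3.58.1 on log2(TPM + 1) and log2(TPM + 0.1), the study's test (ANOVA with Tukey contrasts on TPM), library totals, no filter, a floor of 5 CPM on the mean, a fit of the 2 compared groups alone, a replicate block, an adjusted p under 0.01, and each library left out. The edgeR step was tested on simulated data of 15441 genes, where it called 200 of 200 changed genes and 8 others for *Ncf1*-/- against WT. The changed genes averaged 5 CPM or more, with log2 fold changes of 1.5 in size and a dispersion of 0.02 for all genes. This run therefore does not show how smaller changes, genes of few reads or a wider spread between replicates fare. Intervals are 95%.

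Named genes were all members, up to 3 called genes with the largest rise and fall per pathway list among those that averaged 5 CPM or more, the 2 genes most correlated with each such member, and markers that check a label. The members and lists were chosen with earlier results of these data known. Per the study's methods NSCs of each pup were grown separately, replicates are pups (4 per genotype), and untreated and treated *Ncf1*-/- cultures were paired by animal. The labels give neither the animal nor the pairing. All 4 untreated *Ncf1*-/- libraries held both Y-linked RNA (105 to 116 CPM) and *Xist* (72.3 to 87.8 CPM). WT replicates 1 to 3 held Y-linked RNA at 107 to 118 CPM but *Xist* at only 3.87 to 5.22 CPM. Whether each library came from a single pup was not tested. If libraries shared or pooled animals, their SDs and p-values would not measure the spread between animals. The most alike pair of replicates differed beyond counting noise (chi-square per degree of freedom 4.4). Separate cultures of the same animal could differ in this way too, so this does not show whether libraries shared animals. The counting strand is not given in the sources used here, and genes annotated over the members on the opposite strand had means of at most 6.61 counts. Promoters were RefSeq's for GRCm38.p6, matched by symbol for 7 of 10 members, and gene positions were from GENCODE M21.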

Additional observations from a re-analysis of the deposited data

How the results depend on the processing

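Over the members' log2 fold changes and the alternatives to each, 528 of 604 values kept direction and side of the threshold, 13 gained a call, 28 lost one and 35 turned direction. The cause of these changes was not tested unless stated. Most alternatives leave out 1 library, in some fits from a group outside the comparison. A value that stayed uncalled also counts as kept. The total kept therefore says little about the choice of scale. With the study's own test the members called were 1 after Igfbp2 (4 with edgeR) and 5 for treated *Ncf1*-/- against WT (8 with edgeR), and with limma on log2(TPM + 1) or log2(TPM + 0.1) 2 after Igfbp2. With a mean of at least 5 CPM there were 5 for treated *Ncf1*-/- against WT and 4 for untreated *Ncf1*-/- against WT, where *Gpc3* and *Gpc5* were no longer tested. Pathway genes called were 21 (*Ncf1*-/-), 3 (Igfbp2 treatment) and 22 (treated against WT) with the study's own test, against 44, 34 and 56 with edgeR. With limma they were 11 on both log2(TPM + 1) and log2(TPM + 0.1) for treatment, and 36 and 37 for treated against WT. For treatment they were 18 on library totals and 16 at an adjusted p under 0.01, a stricter rule by construction.

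Values that turned direction after Igfbp2 were, for *Gpc1*, -0.12 on library totals, -0.33 in the study's test and -0.33 and -0.35 with limma (pseudocounts 1 and 0.1), for *Sdc3* -0.09, -0.26, -0.27 and -0.27 in that order, and, in the study's test and both limma fits, -0.15, -0.13 and -0.16 for *Gpc4* and -0.13, -0.12 and -0.13 for *Sdc2*. For treated against WT the same 3 tests gave -0.26, -0.25 and -0.26 for *Gpc1*, -0.09, -0.02 and -0.01 for *Gpc4* and -0.44, -0.35 and -0.39 for *Gpc6*.

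On leaving out 1 library at a time, members called were 5 to 7 for *Ncf1*-/- against WT, 4 to 5 for treatment and 7 to 9 for treated against WT, and pathway genes 40 to 47, 21 to 38 and 50 to 57. Log2 fold changes that crossed 0 ran from -0.04 to 0.11 for *Gpc1*, -0.09 to 0.33 for *Gpc4* and -0.08 to 0.30 for *Sdc4* (*Ncf1*-/- against WT), -0.36 to 0.19 for *Gpc5* (treatment) and -0.02 to 0.31 for *Gpc6* (treated against WT). Members called without WT replicate 4 were 6, 5 and 7 in the 3 comparisons.

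With the replicate number as a block, 6 members and 44 pathway genes were called for treatment, and the calls on *Gpc4* (0.27) and *Sdc2* (0.23) were the 2 gained among members. The study states that cultures were paired by animal, but the labels do not give which libraries share one, so the block used the order of the libraries within each group. Libraries paired this way did not deviate together (r from -0.07 to 0.03 over 4 pairs, against -0.25 to 0.26 over 12 other pairs), and the values without the block were kept as designed. The block changed no other call on a member. Depth limits *Gpc3* and *Gpc5*, with 11 to 30 and 6 to 28 reads in *Ncf1*-/- libraries.

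The family shares rest on TPM. On counts, which are not divided by length, *Sdc3* held 71.8%, 82.9% and 74.4% of the syndecans in WT, *Ncf1*-/- and treated cultures.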

Other observations

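Genes whose levels followed a member most closely over the 12 libraries were looked up among the 11172 genes that averaged 5 CPM or more, as a description, since the libraries share the difference between groups. *Sdc1* was followed by *Olfm2* (Pearson r = 0.994 of log2 CPM) and *Slc25a39* (0.993), and *Sdc3* by *Ildr2* (0.991) and *Plat* (0.990), but 410 and 316 genes reached 0.95 with these members. *Sdc4* was followed by *Creld1* (0.986) and *Zfp775* (0.975), and *Sdc2* by *Endog* (0.977) and *Alpl* (0.973), with 35 genes at 0.95 or more each. *Gpc3* and *Gpc5* averaged under 5 CPM and were not looked up, and only positive correlations were counted. The other glypicans had few such genes. *Gpc4* was followed by *Rsu1* (0.974) and *Sall2* (0.974), *Gpc6* by *Rora* (0.971) and *Emc1* (0.954), *Gpc2* by *Dgkq* (0.962) and *Rsrp1* (0.958), and *Gpc1* by *Sez6* (0.908) and *Ptms* (0.902), with 0 genes at 0.95.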
